A study of Mus musculus with 3 samples.

Results

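The 9 genes described here are Kit, Cd34, Prom1, Procr, Lmo2, Tal1, Sox7, Sox17 and Sox18, a set of 6 progenitor marks and the 3 SoxF factors, out of 28001 features in each count matrix. They were found by gene symbol, and each symbol belonged to 1 Ensembl gene. The libraries came from ICR mice of genotype HCN4H2BGFP at postnatal day 2, in which a nuclear GFP reports on the pacemaker channel gene Hcn4. The GFP-positive and GFP-negative libraries were flow-sorted for and against that reporter from the sinoatrial node region. The RA library was left unsorted. Its title reads RA while its tissue label reads sinoatrial node region, and the labels state neither a treatment nor the number of animals behind a library. Each group was 1 library, so no difference below has a replicate check, no p-value is given, and every interval is a 95% interval that covers counting error only.

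KIT is the receptor of stem cell factor, and CD34 and prominin-1, the product of Prom1, are surface glycoproteins long used to sort progenitors of blood and vessels. PROCR, the endothelial protein C receptor, presents protein C on vessel walls and also marks progenitors in several tissues. LMO2 bridges the bHLH factor TAL1, its E-protein partners and GATA factors in 1 complex that early blood and endothelial precursors share, while SOX7, SOX17 and SOX18 form the SoxF group of the SRY-box family and act in vessel growth, SOX17 in arteries and SOX18 in lymphatic vessels in particular. In the heart, endothelial cells line the chambers as endocardium, the coronary arteries, capillaries and veins, and the lymphatics.

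Promoter windows from 250 bases before to 50 bases after a transcription start were found in a RefSeq table (build GRCm38.p6) for 5 of the 9 genes. They are shown for Kit, Cd34 and Procr, 3 genes of surface proteins. Their levels differed by more than counting error between libraries and between endothelial subsets, for Cd34 by less than 1.5-fold between libraries. Each is written 5' to 3' on the strand of its gene, at the first listed start where a gene has several, and capitals mark matches on either strand to CANNTG (the E-box of bHLH factors such as TAL1), GATAA (GATA factors) and ACAAT (SOX factors).
Kit, chr5:75574737-75575036, + strand: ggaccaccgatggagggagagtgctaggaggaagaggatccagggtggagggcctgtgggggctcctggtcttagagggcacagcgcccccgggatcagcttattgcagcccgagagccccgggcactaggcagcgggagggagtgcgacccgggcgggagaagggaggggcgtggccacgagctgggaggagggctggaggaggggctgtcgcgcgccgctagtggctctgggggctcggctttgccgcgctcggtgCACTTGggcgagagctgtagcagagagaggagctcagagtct
Cd34, chr1:194938571-194938870, + strand: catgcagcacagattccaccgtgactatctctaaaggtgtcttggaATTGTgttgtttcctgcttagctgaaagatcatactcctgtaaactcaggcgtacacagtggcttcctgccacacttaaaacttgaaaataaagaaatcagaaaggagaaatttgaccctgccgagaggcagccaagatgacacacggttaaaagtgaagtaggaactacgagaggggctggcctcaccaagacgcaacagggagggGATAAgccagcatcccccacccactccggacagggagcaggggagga
Procr, chr2:155750967-155751266, + strand: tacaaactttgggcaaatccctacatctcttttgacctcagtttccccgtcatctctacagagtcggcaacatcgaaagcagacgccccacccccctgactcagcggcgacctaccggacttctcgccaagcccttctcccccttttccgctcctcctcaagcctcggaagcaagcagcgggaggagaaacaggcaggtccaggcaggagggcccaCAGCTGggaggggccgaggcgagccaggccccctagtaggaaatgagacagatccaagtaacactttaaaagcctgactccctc
The Kit and Procr windows each held 1 CANNTG match and no GATAA or ACAAT match. The Cd34 window held 1 GATAA and 1 ACAAT match and no CANNTG. Of all 32851 windows of 300 bases in the table, 72.31% held CANNTG, 25.41% GATAA and 31.02% ACAAT. A match is a description of the letters and not a binding site.

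A cell was kept if 500 genes or more were read and no more than 50% of its UMIs (unique molecular identifiers, 1 per captured transcript) were mitochondrial. Kept cells numbered 3289 in the GFP-positive, 3032 in the GFP-negative and 1289 in the RA library. Cells with at least 4 UMIs of Pecam1 and Cdh5 together, 2 junction genes of endothelium, are called endothelial here. There were 2508 (76.3%), 189 (6.23%) and 252 (19.6%) of them in that order, with median depths of 11925.5, 10282 and 11578 UMIs. The GFP-positive and GFP-negative libraries were sorted, so their shares are not read as shares of the tissue. Pairs of libraries shared 7 to 18 cell barcodes. Levels are UMIs of a gene scaled to a common total of UMIs (CPM). The GFP feature was at 43.3 CPM in endothelial cells of the GFP-positive library against 3.47 and 0.901 CPM in the other two. It was read in 38.9% of the GFP-positive endothelial cells. Hcn4 itself gave 65 UMIs there, in 2.31% of the cells, and 0 UMIs in endothelial cells of GFP-negative and RA. Markers of other cell types also differed. The 6 airway epithelium markers summed to 3561 CPM in GFP-positive endothelial cells and to 373 CPM once the 82 cells that also scored for another class were left out, against 2.60 and 0.601 CPM in GFP-negative and RA. The 7 erythroid markers summed to 49.4, 12543 and 4535 CPM, and without cells that scored for another class to 48.3, 3055 and 4545 CPM, which turns the order of GFP-negative and RA. The 7 fibroblast markers summed over all endothelial cells to 846, 1942 and 1867 CPM, and the 9 mural markers to 56.0, 601 and 259 CPM, always with GFP-positive first and RA last.

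The first question was which cells carry these genes. Over classes of at least 30 cells, the highest level of each member was in endothelial cells of 1 of the libraries, but Cd34, Lmo2, Procr and Kit were also read in other classes, which are named "-like" from marker sets. The 3 SoxF genes and Tal1 were low everywhere else. Sox17 lay between 80.3 and 95.9 CPM in the endothelial cells of the 3 libraries and at no more than 4.26 CPM in any other class of at least 30 cells. Sox18 reached 2.11 CPM and Sox7 7.62 CPM outside endothelium at most, and Tal1 4.22 CPM. Cd34 was at 331 CPM (318 to 344) in mesothelial-like cells of the GFP-positive library, at 264 CPM (254 to 274) in GFP-negative fibroblast-like cells and at 96.4 CPM (89.4 to 104) in RA fibroblast-like cells. None of these intervals met those of the endothelial cells, the lowest of which was 410 to 423 CPM in the GFP-positive library.

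Lmo2 was at 146 CPM (124 to 171) in GFP-negative macrophage-like cells and at 98.2 CPM (79.2 to 120) in RA macrophage-like cells. In the order of levels the first of these lay next to the RA endothelial cells at 134 CPM (122 to 147), and their intervals overlapped. Procr was at 79.7 CPM (73.5 to 86.3) in mesothelial-like cells, above RA endothelial cells at 70.9 CPM by less than the counting error, and at 22.3 CPM (18.9 to 26.0) in GFP-negative mural-like cells. Kit was read in 66 of 599 GFP-negative mural-like cells, at 11.6 CPM (9.18 to 14.4), and at 13.3 CPM (6.38 to 24.5) in 77 glial-like cells. Both intervals overlapped that of GFP-positive endothelial cells, 11.1 to 13.4 CPM. The 6 mast-like cells of the GFP-negative library held 3 Kit UMIs, and mast cells are a textbook source of KIT. In cells this few 1 UMI makes 34.9 CPM, and with under 30 cells they are not in the order of classes above.

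Cardiomyocyte-like cells, a class that should lack these genes, serve as a background for shares of cells with a UMI; what gave their UMIs was not tested. In the GFP-positive library they read Procr at 23.6 CPM and Lmo2 at 25.9 CPM, in 32.9% and 34.2% of cells at a median depth of 18617 UMIs. After every cell was thinned to 5000 UMIs these shares were 10.5% and 11.8%, against 68.5% and 69.5% of the endothelial cells. Unthinned endothelial shares were 87.8% for both genes. Kit was read in 1.97% of those cardiomyocyte-like cells and in 13.2% of the endothelial cells before thinning, and in 1.32% and 5.31% after it.

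**Figure D1:**
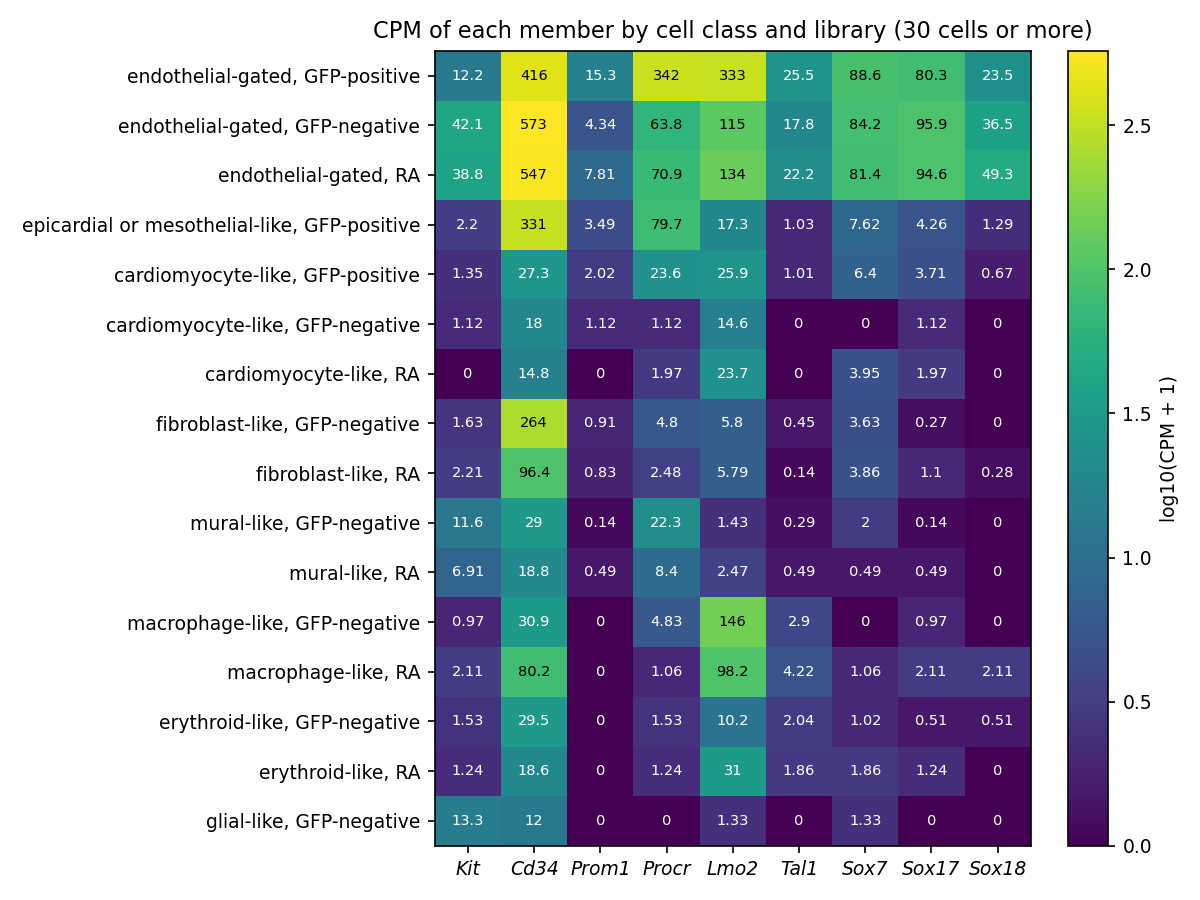
CPM of each member (columns) in each cell class of at least 30 cells in each library (rows); colour is log10(CPM + 1) and the number in each cell is the CPM. The SoxF genes and Tal1 are bright only in the 3 endothelial rows, while Cd34 is also bright in mesothelial-like and fibroblast-like cells and Lmo2 in macrophage-like cells.

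The second question was how endothelial cells of the sorted and unsorted libraries compare. A gene was called higher or lower when its CPM differed by at least 1.5-fold and both sums together held at least 20 UMIs. Between GFP-positive and RA, 3 of 9 members were called higher (Procr, Lmo2 and Prom1) and 2 lower (Kit and Sox18). Of all 13851 genes tested, 26.1% were called higher and 12.1% lower. Between GFP-positive and GFP-negative the same 3 were called higher and the same 2 lower, and 25.7% and 9.77% of all genes were. These shares of all genes are of the order of 3 and 2 in 9, so the number of members called is no result about the set. Both comparisons share the GFP-positive library. Between GFP-negative and RA, none was called higher and 1 lower (Prom1, on 10 and 26 UMIs), with 7.46% and 9.92% of all genes.

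Among the genes of surface proteins, Procr had the widest difference. It was at 342 CPM in GFP-positive, 63.8 CPM in GFP-negative and 70.9 CPM in RA endothelial cells. The GFP-positive library stood alone, and the other two lay within counting error of each other. The ratio of GFP-positive over RA was 4.83 (4.24 to 5.51) and over GFP-negative 5.36 (4.56 to 6.35). Mesothelial markers, whose class also reads Procr, summed to 377, 58.2 and 85.3 CPM in the endothelial cells of the 3 libraries, against 6272 CPM in mesothelial-like cells. All 8 were read in GFP-positive, while Msln, Lrrn4 and Krt8 were at 0 in both others and Upk3b also in GFP-negative. Without the cells that scored for another class, that sum was 166 CPM in GFP-positive and the log2 ratio of Procr over RA was 2.32, against 2.27 with them. The part of mesothelial UMIs in the Procr difference was not tested.

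Kit ran the other way. It was at 12.2 CPM in GFP-positive, 42.1 CPM in GFP-negative and 38.8 CPM in RA endothelial cells. The level in RA was 3.18 times (2.60 to 3.87) and in GFP-negative 3.45 times (2.75 to 4.31) that in the GFP-positive library. The 5 mast markers summed to 0.133, 8.68 and 6.31 CPM in the same cells, with 2, 3 and 3 of them read, and mural markers moved in the same direction (above); their part in the Kit difference was not tested. Mcpt4 and Ms4a2 gave 0 UMIs in the endothelial cells of all 3 libraries and Tpsb2 0 in GFP-positive, but Ms4a2 also gave only 1 UMI in the 6 mast-like cells.

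Cd34 was at 416 CPM in GFP-positive, 573 CPM in GFP-negative and 547 CPM in RA. The GFP-positive level was the lowest by more than counting error, at 0.761 of that in RA (0.725 to 0.799), and stayed within the 1.5-fold limit. Prom1 was read at 575, 10 and 26 UMIs, or 15.3, 4.34 and 7.81 CPM. Its ratio of GFP-positive over RA was 1.96 (1.33 to 3.03).

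Of the complex, Lmo2 was at 333 CPM in GFP-positive, 115 CPM in GFP-negative and 134 CPM in RA endothelial cells, a ratio of 2.49 (2.27 to 2.75) over RA and 2.91 (2.57 to 3.30) over GFP-negative. Macrophage markers, whose class also reads Lmo2, summed to 17.7, 73.8 and 82.0 CPM in the same order. Their part in the Lmo2 difference was not tested. Tal1, the partner of Lmo2, was at 25.5, 17.8 and 22.2 CPM, and the intervals of the 3 libraries overlapped. The ratio for Tal1 was 1.15 (0.906 to 1.48) over RA and 1.44 (1.05 to 2.01) over GFP-negative, both within the 1.5-fold limit. The intervals of the Lmo2 and Tal1 ratios did not overlap, so the 2 members of 1 complex were not read in a fixed proportion across the libraries.

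Of the SoxF genes, Sox18 was called and Sox7 and Sox17 were not. Sox7 was at 88.6, 84.2 and 81.4 CPM, with a ratio of GFP-positive over RA of 1.09 (0.961 to 1.24). Sox17 was at 80.3, 95.9 and 94.6 CPM, with a ratio of 0.849 (0.755 to 0.956). Sox18 was at 23.5 CPM in GFP-positive, 36.5 CPM in GFP-negative and 49.3 CPM in RA. The RA level was 2.09 times (1.76 to 2.47) and the GFP-negative level 1.55 times (1.22 to 1.94) that of the GFP-positive library.

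**Figure D2:**
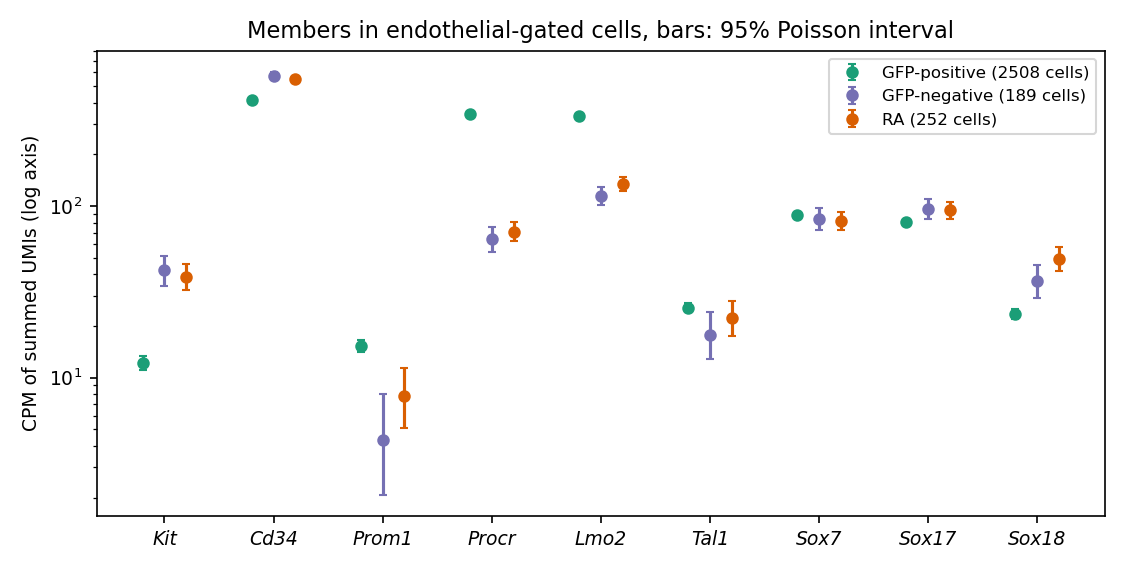
CPM (log axis) of the 9 members in endothelial cells of the GFP-positive, GFP-negative and RA libraries; points are sums over cells and bars 95% Poisson intervals. Procr and Lmo2 are highest in the GFP-positive library, at 342 and 333 CPM, Kit is lowest there at 12.2 CPM, and the Sox7 points lie together between 81.4 and 88.6 CPM.

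Stress genes of cell dissociation moved with the same contrast. They made up 0.756% of the UMIs in GFP-positive endothelial cells, 0.448% in GFP-negative and 0.442% in RA. Of 11, 9 were called higher over RA and 8 over GFP-negative, beside 26.1% and 25.7% of all genes. Of 10 cell cycle genes, 5 were called lower than in RA and 3 lower than in GFP-negative, beside 12.1% and 9.77% of all genes. The part of stress, cycling or depth in the members' differences was not tested.

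The other genes of these pathways went both ways between GFP-positive and RA endothelial cells. The counts of each list stand beside 26.1% of all genes called higher and 12.1% lower. Of 12 genes of the TAL1 and LMO2 complex and blood factors, 2 were called higher and 1 lower, 8 lay between the limits, and the median log2 ratio was 0.12 against 0.05 over all genes. The co-repressor Cbfa2t3 was at 138 against 42.7 CPM, 3.24-fold higher (2.74 to 3.85), and the E protein Tcf3 at 69.4 against 115 CPM was lower. Gata2, the endothelial GATA factor, was at 92.9 and 82.3 CPM, and Gata1 of red cells gave 0 UMIs in both. Of 14 other progenitor or endothelial receptor marks, 3 were higher and 5 lower, with a median of 0.14. Ly6a, which encodes the SCA-1 antigen of mouse progenitors, was at 66.5 against 15.0 CPM and the sialomucin Podxl, a relative of CD34, at 87.9 against 32.7 CPM. The drug pump Abcg2 was at 40.4 against 105 CPM and the homing receptor Cxcr4 at 4.08 against 7.81 CPM.

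Among 13 ETS, KLF and related factors 4 were higher and 3 lower, with a median of 0.27. The flow-responsive Klf4 and Klf2 were 5.94-fold (5.19 to 6.83) and 2.35-fold (2.23 to 2.47) higher, and Ets2 was at 63.1 against 147 CPM. Etv2, which starts the endothelial programme in the embryo, gave 4 and 2 UMIs. In the list of the KIT ligand and protein C pathway 3 were higher and 3 lower, with a median of 0.15. Thrombomodulin (Thbd), which acts with PROCR to activate protein C, was at 166 against 56.5 CPM, 2.94-fold higher (2.54 to 3.42), whereas P-selectin (Selp) was at 37.1 against 82.9 CPM and the inhibitor Tfpi at 98.3 against 204 CPM. The KIT ligand gene Kitl was at 56.9 and 48.7 CPM.

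SoxF targets and partners had 7 of 15 called higher and 3 lower, with a median of 0.24. The arterial connexin Gja5 was 27.0-fold higher (14.7 to 56.3), on 3041 and 10 UMIs, and Prox1, which SOX18 induces in lymphatic endothelium, at 55.1 against 11.1 CPM. Robo4 was at a ratio of 0.422 (0.343 to 0.523) and Dll4 at 16.7 against 27.3 CPM. Of 10 other Sox genes, 4 were higher and 1 lower, with a median of 0.53. Sox6 gave 188 and 4 UMIs, Sox2 61 and 0 UMIs, and Sox9 was at 3.73 against 13.2 CPM. Airway epithelium markers summed to 3561 and 0.601 CPM in the same cells, and their part in the Sox2 UMIs was not tested.

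The third question was which kinds of endothelial cell carry the members. Cells with at least 2 UMIs of a marker were set against cells with 0 UMIs of it within a library. Npr3 marks endocardium, Mmrn1 lymphatic, Gpihbp1 capillary, Vwf mostly venous and Sox17 and Gkn3 arterial endothelium. The other endocardial markers were called higher in the Npr3 cells for 2 of 4 (GFP-positive) and 4 of 4 (GFP-negative and RA). All 5 other lymphatic markers were higher in the Mmrn1 cells, and 5, 4 and 4 of 5 capillary markers in the Gpihbp1 cells. Of 8 other arterial markers, 6 were higher in Sox17 cells of the GFP-positive library. In GFP-negative 1 was higher and 2 were lower (Gja4 and Bmx), and in RA 1 was higher and 1 lower (Bmx). Sox17 cells are therefore called by their gene only. In GFP-positive, 4 of 8 were higher in Gkn3 cells and 2 of 4 venous markers in Vwf cells. In RA 1 of 4 venous markers was higher in Vwf cells, so these too are called by their gene only. Gkn3 cells numbered 486 in GFP-positive and 0 in the others, and Mmrn1 cells 188, 2 and 1. With the airway epithelium UMIs given above, whether all endothelial cells of the GFP-positive library came from the heart was not tested, and this bears on every comparison of that library with the others. The splits overlap, since 1 cell can carry several markers.

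Npr3 cells of the GFP-positive library were high in Kit and low in Sox17 and Sox18, while Sox7 was at a ratio of 0.969 (0.892 to 1.05). There, 1 member was called higher and 5 lower, against 10.2% and 15.4% of all genes. Kit was at 31.1 CPM in 620 Npr3 cells and 5.54 CPM in 1616 cells without Npr3, a ratio of 5.62 (4.56 to 6.97). In the GFP-negative library Kit was at 49.6 and 38.2 CPM, a ratio of 1.30 (0.835 to 2.00), and in RA at 36.1 and 43.1 CPM, a ratio of 0.837 (0.577 to 1.21). The interval of the GFP-positive ratio lay apart from both others. Sox17 was at 19.7 against 97.9 CPM in GFP-positive, at 0 against 208 UMIs in GFP-negative and at 4 against 288 UMIs in RA. Sox18 was lower in Npr3 cells of all 3 libraries, with ratios of 0.430 (0.349 to 0.526), 0.380 (0.197 to 0.682) and 0.162 (0.0973 to 0.258).

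Procr moved in opposite directions under this split. It was at 168 against 417 CPM in GFP-positive, a ratio of 0.403 (0.381 to 0.425), and at 111 against 31.8 CPM in GFP-negative, a ratio of 3.49 (2.40 to 5.12). In RA it was at 82.6 against 62.2 CPM, a ratio of 1.33 (1.02 to 1.74), which was not called. Lmo2 was lower in Npr3 cells of GFP-positive, at 201 against 384 CPM, and of GFP-negative, at 71.8 against 137 CPM. Counts of members called were 1 higher and 4 lower in GFP-negative, beside 22.1% and 18.5% of all genes, and 1 higher and 3 lower in RA, beside 20.5% and 14.8%. The 1 higher in RA was Prom1, on 17 and 8 UMIs, and it turned once cells were thinned. Of 11 stress genes, 10, 8 and 9 were lower in Npr3 cells of GFP-positive, GFP-negative and RA, and their part was not tested.

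Sox17 cells were rich in Cd34 in each library. Cd34 was at 718 against 305 CPM in GFP-positive, 731 against 435 CPM in GFP-negative and 728 against 444 CPM in RA, with ratios of 2.36 (2.28 to 2.44), 1.68 (1.49 to 1.89) and 1.64 (1.48 to 1.81). The level in Sox17 cells was thus nearly equal in the 3 libraries, and the cells with 0 Sox17 UMIs differed. Sox18 was at 36.2 against 19.8 CPM in GFP-positive and 83.6 against 32.0 CPM in RA, ratios of 1.83 (1.58 to 2.12) and 2.61 (1.87 to 3.66), but at 33.9 against 32.3 CPM in GFP-negative. Lmo2 was at 488 against 277 CPM in GFP-positive Sox17 cells, a ratio of 1.76 (1.69 to 1.83). Leaving Sox17 itself aside, 4 members were higher and 1 lower in GFP-positive, beside 9.67% and 17.2% of all genes. The counts were 3 and 1 in GFP-negative, beside 11.9% and 23.2%, and 2 and 1 in RA, beside 13.5% and 21.6%.

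In the Gkn3 cells of the GFP-positive library Cd34 stood at 667 against 335 CPM, Lmo2 at 495 against 280 CPM and Sox17 at 136 against 62.6 CPM, and Kit at 7.45 against 13.6 CPM. These were 3 higher and 1 lower, beside 8.23% and 15.7% of all genes. Mmrn1 cells were poor in Cd34 and Kit. Cd34 was at 83.3 against 446 CPM, a ratio of 0.187 (0.164 to 0.212), and Kit at a ratio of 0.108 (0.0293 to 0.279) on 4 UMIs. Sox18 was at 45.1 against 21.9 CPM there, a ratio of 2.06 (1.70 to 2.50), Procr at 526 against 323 CPM and Prom1 at 24.1 against 14.6 CPM. With Sox17 at 24.1 against 85.0 CPM, 3 members were higher and 3 lower, beside 11.9% and 23.8% of all genes.

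Gpihbp1 cells differed by library. In GFP-positive only Prom1 was called, at 20.1 against 12.6 CPM, beside 6.56% of genes higher and 11.3% lower. In GFP-negative Cd34 was at 721 against 325 CPM and in RA at 699 against 395 CPM, with ratios of 2.22 (1.93 to 2.56) and 1.77 (1.59 to 1.97), while GFP-positive gave 399 against 434 CPM. Sox18 was at 46.3 against 19.0 CPM in GFP-negative and 78.8 against 15.6 CPM in RA. Sox17 was at 135 against 36.8 CPM and 170 against 13.2 CPM in these libraries. Members called numbered 4 higher and 1 lower in GFP-negative, beside 15.6% and 22.1% of all genes, and 4 and 2 in RA, beside 14.3% and 18.6%. Tal1 was among the higher in both, with ratios of 2.07 (0.922 to 5.23) and 1.61 (0.933 to 2.85), and in GFP-negative it turned once cells were thinned. In RA 7 of 11 stress genes were also higher in Gpihbp1 cells, and 7 of 11 in Sox17 cells. Of 10 cell cycle genes, 8 were higher in Gpihbp1 cells of GFP-negative and 6 higher and 1 lower in those of RA, while none was called in GFP-positive. In Sox17 cells 5 were higher in GFP-positive, 5 higher and 2 lower in GFP-negative and 8 higher in RA. In Npr3 cells 7 were lower in GFP-negative, 4 lower and 1 higher in RA and none was called in GFP-positive. In GFP-positive, 6 were higher in Gkn3 cells and 4 lower in Mmrn1 cells. Their part in the members' values was not tested. Vwf cells were 72.7% of GFP-positive endothelial cells and 15.1% of those in RA. Under that split Cd34 alone was called in GFP-positive, 1 higher, beside 11.5% and 12% of all genes. In RA 2 were higher (Procr and Lmo2) and 3 lower (Cd34, Sox17 and Sox18), beside 12.6% and 15.7%. There 9 of 10 cell cycle genes were lower in Vwf cells, and in GFP-positive 3 were higher.

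Tal1 and Sox7 varied least between kinds of endothelial cell of the GFP-positive library. When every cell was given to 1 subset only, in the order Mmrn1, Npr3, Gkn3, Sox17, Vwf, Gpihbp1 and none, 13 subsets of at least 30 cells resulted, 7 of them in GFP-positive. The highest subset of the GFP-positive library was 1.98 times the lowest for Tal1 and 1.79 times for Sox7. The same ratio was 22.5 for Kit, 8.35 for Cd34, 4.65 for Prom1, 4.41 for Sox18, 3.18 for Procr and 2.78 for Lmo2. Sox17 is left out because it defined a subset. Kit ranged from 1.40 CPM in Mmrn1 cells to 31.4 CPM in Npr3 cells in GFP-positive, but from 32.6 to 49.6 CPM over the 3 GFP-negative subsets and from 35.6 to 46.4 CPM over the 3 RA subsets.

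**Figure D3:**
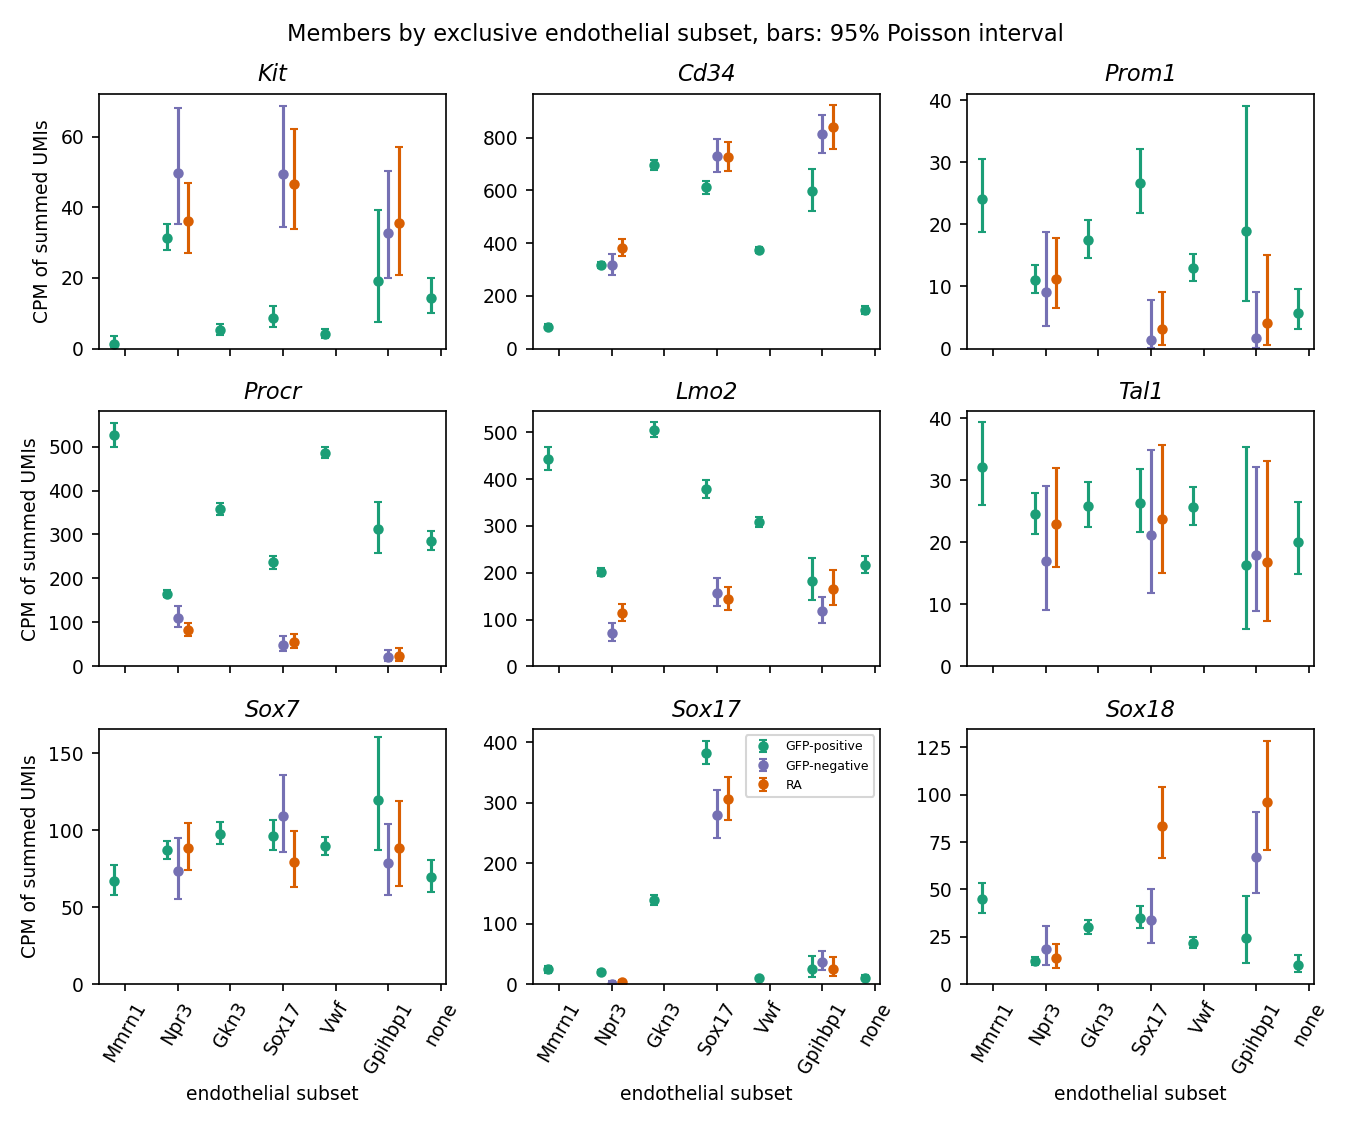
CPM of each member in endothelial subsets that share no cell, by library; bars are 95% Poisson intervals, and subsets under 30 cells are not drawn. Kit in the GFP-positive library is highest in the Npr3 subset at 31.4 CPM and lowest in the Mmrn1 subset at 1.40 CPM, whereas Tal1 and Sox7 differ there by less than 2-fold between subsets.

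The library difference was then taken again within cells that carry the same marker, a comparison added after the first results were seen. Within Npr3 cells (620 in GFP-positive and 124 in RA) Kit was at 31.1 and 36.1 CPM, a ratio of 0.863 (0.645 to 1.17), an interval that does not reach the 0.314 of all endothelial cells. Over the GFP-negative Npr3 cells, at 49.6 CPM, the ratio was 0.627 (0.446 to 0.904). Kit was at 6.64 against 46.4 CPM within Sox17 cells, a ratio of 0.143 (0.0952 to 0.216), and at 8.59 against 40.9 CPM within Gpihbp1 cells, a ratio of 0.210 (0.153 to 0.290). Marked cells can carry other markers too. Of 681 GFP-positive Gpihbp1 cells 35 lay in the exclusive Gpihbp1 subset, and of 107 in RA 42. There Kit was at 19.0 CPM (7.64 to 39.1) and 35.6 CPM (20.8 to 57.1), with overlapping intervals. In the exclusive Sox17 subsets it was at 8.63 CPM (6.01 to 12.0) and 46.4 CPM (33.9 to 62.1). Sox18 had a ratio of 0.870 (0.542 to 1.46) within Npr3 cells, and lay at 36.2 against 83.6 CPM within Sox17 cells and 28.1 against 78.8 CPM within Gpihbp1 cells. Prom1 was at 11.1 and 11.2 CPM within Npr3 cells and at 22.3 against 3.10 CPM within Sox17 cells, the latter on 195 and 3 UMIs.

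Procr was higher in GFP-positive than in RA within Npr3, Sox17, Gpihbp1 and Vwf cells alike. The ratios were 2.03 (1.69 to 2.45), 4.67 (3.56 to 6.23), 7.52 (6.12 to 9.34) and 2.55 (2.01 to 3.29). Lmo2 was as well, with ratios of 1.76 (1.51 to 2.07), 3.40 (2.87 to 4.06), 2.17 (1.90 to 2.48) and 1.84, the last on 91 RA UMIs. Sox17 within Npr3 cells was at 19.7 CPM in GFP-positive against 2.62 CPM in RA on 4 UMIs. Over RA, 3, 5, 7 and 5 of 9 members were called either way within Npr3, Sox17, Gpihbp1 and Vwf cells, beside 31.2%, 44.4%, 39.6% and 48.4% of all genes. Over GFP-negative the counts were 5, 4 and 7 within the first 3 kinds, beside 31.9%, 43.6% and 39.2%. Between GFP-negative and RA they were 1, 1 and 2, beside 20.2%, 23.7% and 20.5%. In Gpihbp1 cells 4 of the 7 were lower (Kit, Cd34, Sox17 and Sox18) over each of the other libraries, and 3 higher (Prom1, Procr and Lmo2).

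**Figure D4:**
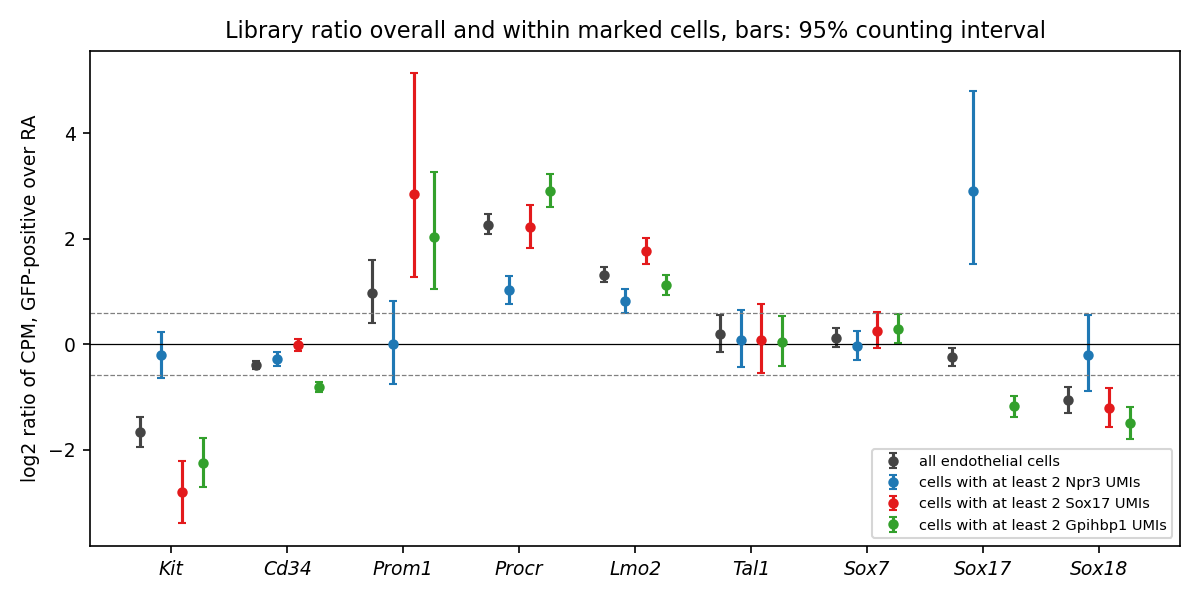
log2 ratio of CPM, GFP-positive over RA, for all endothelial cells and for cells with at least 2 UMIs of Npr3, Sox17 or Gpihbp1; bars are 95% counting intervals and dashed lines mark 1.5-fold. For Kit the ratio lies near 0 within Npr3 cells (0.863 as a plain ratio) and far below 0 within Sox17 and Gpihbp1 cells, while Procr and Lmo2 lie above 0 in all 4 sets of cells; Sox17 is not drawn for Sox17 cells.

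Co-detection in single cells was counted after thinning each endothelial cell to 5000 UMIs, which left 2466, 178 and 240 cells and dropped 42, 11 and 12. Of the 2466 GFP-positive cells, 84 (3.41%, interval 2.73% to 4.20%) read both Kit and Cd34. The share was 30 of 178 (16.9%, 11.7% to 23.2%) in GFP-negative and 30 of 240 (12.5%, 8.59% to 17.4%) in RA. Without thinning these shares were 11.5%, 33.9% and 27.8%. Kit, Cd34 and Prom1 together were read in 6 GFP-positive cells (0.243%) and in 0 cells of the other two, with exact upper bounds of 2.05% and 1.53%. Kit, Cd34, Lmo2 and Tal1 together were read in 8 (0.324%), 1 (0.562%) and 3 (1.25%) cells, with overlapping intervals.

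Lmo2 was read less often in GFP-positive cells with Kit than in those without. Of 131 cells with Kit, 43.5% (34.9% to 52.4%) read Lmo2, against 71.0% (69.1% to 72.8%) of the 2335 cells without Kit. Sox17 was read in 6.87% (3.19% to 12.6%) of the Kit cells and 17.1% (15.6% to 18.7%) of the rest. Of the 131 Kit cells 81 lay in the Npr3 subset, which is 13.3% of its 608 thinned cells. Kit was read in 5 of 33 cells (15.2%) of the Gpihbp1 subset and 14 of 201 (6.97%) of the cells in none, and in 22 of 785 (Vwf), 7 of 438 (Gkn3), 2 of 214 (Sox17) and 0 of 187 (Mmrn1) in the rest. Lmo2 was read in 73.3% (71.1% to 75.4%) of Procr cells and 61.3% (57.8% to 64.7%) of the others. Tal1 cells read Lmo2 in 72.9% (67.7% to 77.7%) of cases and cells without Tal1 in 69.0% (67.0% to 71.0%), and these intervals overlapped.

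Within the SoxF group, Sox18 was read in 15.4% (12.0% to 19.3%) of the 409 GFP-positive cells with Sox17 and in 9.92% (8.66% to 11.3%) of those without. Sox7 was read in 39.6% (34.8% to 44.5%) and 33.5% (31.5% to 35.6%) of the same cells, with overlapping intervals. All 3 SoxF genes were read in 21 cells (0.852%), and in 1 (0.562%) and 5 (2.08%) cells of GFP-negative and RA, with overlapping intervals. Sox17 cells also read Cd34 more often, at 85.6% (81.8% to 88.8%) against 66.1% (64.0% to 68.1%). The median thinned cell read 3 of the 9 members in GFP-positive and 2 in both others, and no cell read more than 7.

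Genes with a pattern most like each member were sought over the 13 subsets by Pearson's r of log2(CPM + 1) among 7716 genes. The 13 points come from 3 libraries and 7 of them from 1, so r is a description without a test. Cd34 was closest to the endothelial adhesion gene Esam (r = 0.97) and to Sparc (0.94), and Procr to Nqo1 (0.95), Crim1 (0.95) and Lsr (0.94). Kit was closest to Pxdn (0.93), Sgce (0.92) and Traf4 (0.92), and Prom1 to Abhd14b (0.96). Gadd45g (0.92) was among the 3 closest to Lmo2. For Sox18 the closest was Arpc4 (0.92), for Tal1 Ppp2cb (0.89) and for Sox7 Plscr4 (0.84). Sox17 is left out here too, because its own UMIs defined the subsets. Among the 36 pairs of members, Procr and Prom1 had the highest r (0.82) and Kit and Lmo2 the lowest (-0.88). Pairs with Sox17 are among the 36 and carry the same limit.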

How the data were processed

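Single-cell suspensions were profiled with 10x Genomics libraries, 1 per group. The deposited values are raw UMI counts for each gene in each barcode, made with Cell Ranger and build mm9 per the submitters' processing notes; no version is given there. Values were summed over cells and scaled to CPM with Python 3.11.15, numpy 2.4.6 and scipy 1.17.1 (figures: matplotlib 3.10.9). Intervals were exact Poisson (CPM), conditional binomial (ratios) and Clopper-Pearson (shares). A median log2 ratio had 0.5 UMIs added to each sum. Other classes needed a mean log2 marker score of 0.5, a lead of 0.25 and 3 markers read, outside the endothelial gate. No doublet caller was run; endothelial cells that also scored for another class (82, 10 and 2) were kept, and left out in an alternative. The call rule was run on simulated counts that carry counting error only, which says nothing about variation between libraries. The members and gene lists were chosen with earlier results of these data known, and comparisons within marked cells were added after seeing the data. All 9 members are named, and of each list up to 3 genes with the highest and 3 with the lowest ratio, with a few others named after their values were seen (Gata1, Gata2, Etv2 and Kitl). Alternatives changed the gate, cell filters, scaling, fold, UMI minimum, split and thinning. Protein sequences were not used here. One of the genes most like Lmo2 is not reported here.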

Additional observations from a re-analysis of the deposited data

Results flagged for a closer look

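In 5 cases a member was called in opposite directions in different libraries under the same split, as a ratio of CPM in cells with at least 2 UMIs of the splitting gene over cells with 0. The difference between libraries was not tested, since each is 1 sample. Procr under the Npr3 split was at a ratio of 0.403 in GFP-positive and 3.49 in GFP-negative. Cd34 under the Vwf split was at 1.70 in GFP-positive and 0.485 in RA, where 38 cells carried Vwf. Prom1 was called in opposite directions under 3 splits, with ratios of 0.660 in GFP-positive and 2.26 in RA for Npr3, 1.70 and 0.299 for Sox17, and 1.59 and 0.392 for Gpihbp1. The RA values of Prom1 rest on 24 or 25 UMIs in both arms together, and those for Npr3 and Gpihbp1 turned under thinning.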

How the results depend on the processing

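No paired analysis was possible because each group is 1 library. The 27 ratios of members between libraries were taken again under other gates, filters, scalings, folds and UMI minimums. With each ratio counted once per setting, 242 values moved by less than their counting interval. In 1 case the move was larger, and none turned. Here and below, only a ratio that was called as reported is counted as turned. A changed fold or UMI minimum alters only calls. Such settings leave each ratio as it was and add to the smaller moves, also among the split ratios. Of the added ratios within marked cells 35 moved by less, 50 by more and 2 turned. Ratios not called as reported also changed direction and are not among these 2. Sox17 over RA was lower over all endothelial cells and higher within Npr3 and Vwf cells. Cd34 over RA was likewise lower over all endothelial cells and higher within Vwf cells. Counted in the same way, the 27 levels moved by less in 132 cases and by more in 30, and the 6 shares in 36 and 12. The 114 split ratios did so in 1199 and 115 cases, with 3 turned. Depth limits Prom1 most, with 10 and 26 UMIs in the GFP-negative and RA endothelial cells. Members called lower in GFP-positive than in RA (2 as reported) numbered 0 within Npr3 cells, 4 within Gpihbp1 cells and 1 within Vwf cells, and those lower than in GFP-negative (2) numbered 1 within Sox17 cells, 4 within Gpihbp1 cells and 1 at a fold of 2. Between GFP-negative and RA the 1 lower member became 0 at a fold of 2 or a minimum of 50 UMIs and 2 within Gpihbp1 cells. The log2 ratio of Prom1 over RA turned to -0.038 within Npr3 cells and that of Sox18 over GFP-negative to 0.066 within Sox17 cells.

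Members called under a split fell at a fold of 2 from 5 to 2 (Sox17, GFP-positive), 4 to 0 (Sox17, GFP-negative), 4 to 1 (Gkn3), 1 to 0 (Vwf and Gpihbp1, GFP-positive) and 6 to 3 (Gpihbp1, RA). Split at 1 UMI they were 2 for Gkn3, 2 for Mmrn1 (6 as reported) and 0 for Gpihbp1 in GFP-positive. For the Vwf and Gpihbp1 splits of GFP-positive, a gate of 8 UMIs gave 0 and 0 and thinning before the split 2 and 2. The Gpihbp1 split there gave 3 at a gate of 2 UMIs and 2 without cells of another class. Thinning before the split turned the log2 ratios of Prom1 in RA under Npr3 (-1.002, from 1.13) and Gpihbp1 (0.61, from -1.31) and of Tal1 under Gpihbp1 in GFP-negative (-0.69, from 0.99). The cause was not tested.

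Shares of cells with several members follow depth by construction. Kit with Cd34 was read in 0.877%, 2.12% and 5.95% of GFP-positive, GFP-negative and RA cells at 2000 UMIs and in 11.5%, 33.9% and 27.8% without thinning. The 3 SoxF genes together were read in 0.159%, 0 and 0.397% at 2000 UMIs and in 7.10%, 9.52% and 11.5% without thinning.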
